A study of Mus musculus with 3 samples.

Results

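Nos2 Saa3 fibroblasts are skin wound fibroblasts whose RNA is rich in 4 inflammatory transcripts, Nos2, Tnfaip6, Saa3 and Cxcl5. They were chosen by UMI counts (unique molecular identifiers, 1 per captured probe molecule) in single cells. A cell was kept with at least 250 genes and at most 10% of its UMIs on mitochondrial genes. It entered the fibroblast gate with at least 3 UMIs of Col1a1, Col3a1 and Pdgfra together. It became a member with at least 2 UMIs over the 4 rule genes, provided that this sum was no smaller than that of Pi16, Tnxb, Sfrp4, Mfap5 and Fbn1 and larger than that of Col12a1, Mmp11, Tnn and Tnc. In all, 542 cells met the rule, of 4787 fibroblast-gate cells and 26953 kept cells.

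The series holds 3 single-cell libraries of mouse skin, made with a fixed-RNA probe kit (GEM-X Flex v2). All animals were female C57BL/6J mice that received a splinted 5 mm full-thickness excisional wound on the back at postnatal day 50. The first wound group was covered with 20 µL of gelatin methacryloyl (GelMA), a hydrogel set with UV light for 1 min, that carried apoptotic neutrophils (AN-GelMA). The second received the same gel without cells (GelMA). The third received no gel and carries the title Sham, although its skin was wounded too (untreated). Wounds with a 2 mm margin of surrounding skin were taken on day 5, fixed for 24 h and dissociated with Liberase for 2 h at 37 °C. Each group is 1 library and how many mice went into it is not stated, so animal, skin piece and treatment cannot be told apart. The AN-GelMA files also carry the word heat, which the sources used here do not explain. No test between groups was possible, and every 95% interval below covers counting error only.

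Fibroblasts of a healing wound make matrix, contract the wound bed and also signal to immune cells. Interleukin-1 and tumour necrosis factor acting through NF-kB switch on fibroblast genes for chemokines, acute phase proteins, the inducible nitric oxide synthase and the prostaglandin-forming enzyme cyclooxygenase. Low oxygen acts through hypoxia-inducible factors, which switch on glucose uptake, glycolysis and the angiogenic factor Vegfa. The rule genes belong to this inflammatory programme. Nos2 encodes inducible nitric oxide synthase, Tnfaip6 encodes a secreted hyaluronan-binding protein, Saa3 encodes an acute phase serum amyloid A protein, and Cxcl5 encodes a chemokine that draws neutrophils.

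The libraries held between 6073 and 11449 barcodes and between 8945496 and 21613482 UMIs, and the filters removed between 34 and 147 barcodes each. Pairs of libraries shared between 94 and 135 barcode sequences, none of them (0) among the members. Members carried a median of 1186 UMIs in AN-GelMA, 1518 in GelMA and 1146.5 in untreated, with medians of 882, 1129 and 845.5 detected genes in the same order of libraries. Their summed UMIs were 459512 in AN-GelMA, 59151 in GelMA and 272264 in untreated. A single UMI was therefore worth 2.18 CPM (counts per 1000000 UMIs of the summed cells) in AN-GelMA, 16.9 CPM in GelMA and 3.67 CPM in untreated.

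Members made up 13.8% of fibroblast-gate cells in AN-GelMA (329 of 2387, interval 12.4% to 15.2%), 3.31% in GelMA (33 of 998, interval 2.29% to 4.61%) and 12.8% in untreated (180 of 1402, interval 11.1% to 14.7%). The AN-GelMA and untreated intervals overlapped, and the GelMA interval lay below both. Without Nos2 in the rule the shares were 11.0%, 3.31% and 7.49% in AN-GelMA, GelMA and untreated, so the near-equality of AN-GelMA and untreated depended on counting Nos2. As a share of all kept cells, members were 3.42% in AN-GelMA, 0.292% in GelMA and 2.98% in untreated. The fibroblast gate itself took 24.8% of kept cells in AN-GelMA, 8.83% in GelMA and 23.2% in untreated, so the library with few members also had few gated fibroblasts. Among the remaining gate cells, fibroblasts typed by Pi16, Tnxb, Sfrp4, Mfap5 and Fbn1 (called Pi16 type here, an adventitial-like profile) were 45.8%, 36.8% and 39.3% of the gate in AN-GelMA, GelMA and untreated. Those typed by Col12a1, Mmp11, Tnn and Tnc (Col12a1 type, a profile of matrix rich in tenascins) were 20.9%, 20.3% and 21.0% in these libraries, and the rest fell in no type.

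At the edge of the rule, 34 AN-GelMA, 4 GelMA and 24 untreated members had exactly 2 UMIs of the rule genes, while 36, 16 and 34 cells of these libraries had 1 UMI and met the other limits. The median member had 7 rule-gene UMIs in AN-GelMA, 6 in GelMA and 7 in untreated, and the highest had 82, 47 and 69. At least 10 such UMIs were present in 120 AN-GelMA, 13 GelMA and 72 untreated members. A further 115 AN-GelMA, 14 GelMA and 46 untreated gate cells had at least 2 rule-gene UMIs but more of the Pi16-type genes.

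The fibroblast label was set beside 8 fibroblast genes that the rule does not count, Col1a2, Pdgfrb, Dcn, Lum, Col6a1, Col5a1, Fap and Thy1. Each of the 8 was higher in members than in kept cells outside the fibroblast gate, in every library. Members had passed the gate on Col1a1, Col3a1 and Pdgfra that those cells failed, so this is a description and no test of the label. Their summed level was 8479 CPM in AN-GelMA members, 7523 CPM in GelMA members and 7324 CPM in untreated members, against 209.4, 191 and 261 CPM outside the gate. Other gate cells stood at 8228, 4825 and 7737 CPM. Col1a2 alone made up 5995 CPM of the sum in AN-GelMA members. Beside other gate cells, Col1a2, Dcn and Col5a1 were higher in members of every library. Pdgfrb, Lum, Col6a1, Fap and Thy1 were lower in AN-GelMA and untreated members, and Col6a1, Fap and Thy1 in GelMA members. Col6a1 was at 672, 473 and 683 CPM in AN-GelMA, GelMA and untreated members, against 1175, 700 and 1249 CPM in other gate cells. Dcn, the matrix proteoglycan decorin, was at 250.3, 169 and 180.0 CPM in AN-GelMA, GelMA and untreated members, against 7.26, 18.3 and 8.64 CPM outside the gate. Of the macrophage markers, 10 of 10 were detected in AN-GelMA members, 3 of 10 in GelMA members and 10 of 10 in untreated members, with summed levels of 316, 152 and 283 CPM against 349, 182 and 366 CPM in the other gate cells. The remaining marker lists stood as follows.

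Keratinocyte markers (8 of 8 detected in each library) summed to 3582 CPM in AN-GelMA members, 2925 CPM in GelMA members and 1627 CPM in untreated members, against 3425, 5233 and 2999 CPM in other gate cells, and 1 AN-GelMA cell held 972 of the 1646 UMIs. Neutrophil markers summed to 63.1, 16.9 and 1028 CPM in AN-GelMA, GelMA and untreated members, against 88.5, 153 and 76.8 CPM in other gate cells, with Cxcr2 and Retnlg at 0 in AN-GelMA and Ly6g at 0 in untreated. A single untreated cell held 112 of the 280 neutrophil-marker UMIs. Endothelial, mural, T or NK, Schwann and adipocyte markers each summed to at most 118 CPM in any library, skeletal muscle markers to between 194 and 254 CPM, and melanocyte markers to 2.18, 33.8 and 382 CPM, against 7.23, 90.4 and 46.0 CPM in other gate cells. At least 3 UMIs of a class, adipocyte and melanocyte markers left uncounted, were present in 40 AN-GelMA, 9 GelMA and 31 untreated members. With these 2 classes counted too, the numbers stayed at 40 in AN-GelMA and 31 in untreated. Members beside other gate cells, and AN-GelMA beside untreated members, were also compared without such cells.

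**Figure D1:**
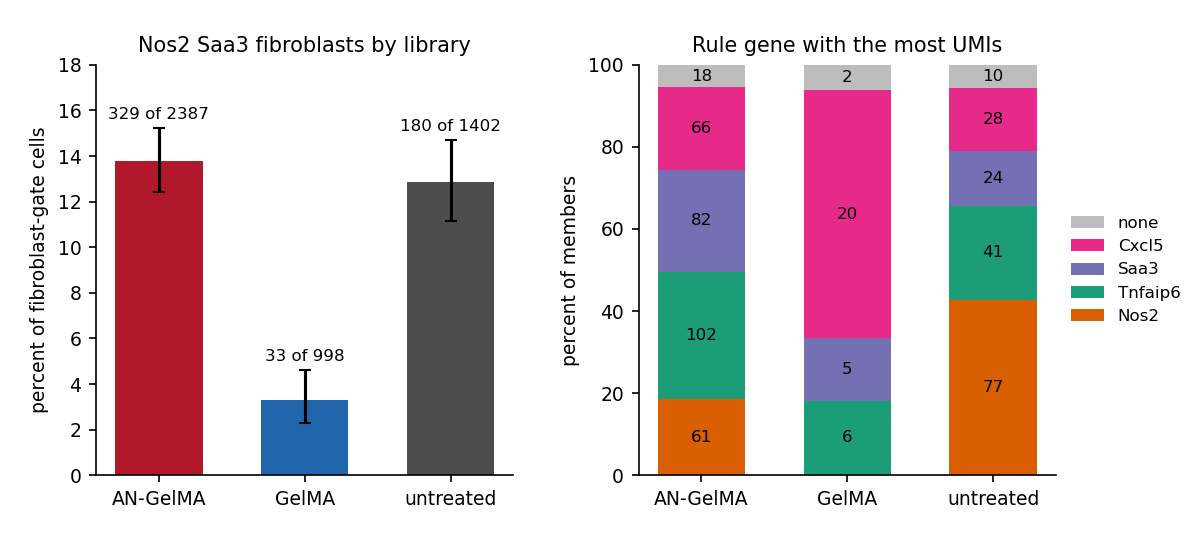
The left panel shows members as a percent of fibroblast-gate cells by library, with exact binomial 95% intervals. The right panel divides the members of each library by the rule gene with the most UMIs (at least 2 and above the other rule genes, otherwise none), with cell numbers in the bars. Nos2 led in 61 AN-GelMA members, in 0 GelMA members and in 77 untreated members.

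Each library reached membership through a different mix of the 4 genes, which is a description because these genes chose the cells. Nos2 was detected in 132 of 329 AN-GelMA members, 1 of 33 GelMA members and 114 of 180 untreated members, at 1835, 16.9 and 3004 CPM in the same libraries. Tnfaip6 was detected in 183 AN-GelMA, 13 GelMA and 66 untreated members, at 3138, 541 and 1480.2 CPM. The order of AN-GelMA and untreated was therefore opposite for these genes. Saa3 reached 1876 CPM in AN-GelMA members (118 cells), 1167 CPM in GelMA members (8 cells) and 1021 CPM in untreated members (52 cells). Cxcl5 was at 1127 CPM in AN-GelMA members (133 cells), 2908 CPM in GelMA members (25 cells) and 911 CPM in untreated members (55 cells). Of the 3 libraries GelMA had the highest Cxcl5 level in members and the lowest Nos2 level.

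Few cells carried all 4 genes. A single rule gene was detected in 146 of 329 AN-GelMA members, 20 of 33 GelMA members and 94 of 180 untreated members, and all 4 were detected in 4, 0 and 2 cells. Nos2 led in 61 AN-GelMA, 0 GelMA and 77 untreated members, and Tnfaip6 led in 102, 6 and 41. Saa3 led in 82 AN-GelMA, 5 GelMA and 24 untreated members, and Cxcl5 led in 66, 20 and 28. The most frequent leading gene thus differed by library, being Tnfaip6 in AN-GelMA, Cxcl5 in GelMA and Nos2 in untreated. Which gene leads within a cell also depends on how well each of the 4 probes captures its RNA, which was not measured.

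Among all fibroblast-gate cells of AN-GelMA and untreated, cells with 1 rule gene nevertheless had each of the others more often than cells without it. In AN-GelMA, 46.5% of Nos2-positive gate cells also had Tnfaip6 (100 of 215), against 16.6% of Nos2-negative ones (361 of 2172). In untreated, 44.4% of Saa3-positive gate cells had Nos2 (32 of 72), against 10.5% of Saa3-negative ones (140 of 1330). In GelMA, 7 of 14 Saa3-positive gate cells had Cxcl5, against 3.76% of Saa3-negative ones (37 of 984). Positive cells were somewhat deeper in AN-GelMA, with a median of 1356 UMIs in Nos2-positive against 1094.5 in Nos2-negative cells, and the part of depth in these shares was not tested. In untreated the Saa3-positive cells were not deeper, with medians of 1100.0 and 1130.0 UMIs.

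The place of the rule genes within each library is given as a description, since their UMIs chose the members. Their share of all Nos2 UMIs was 70.0% of 1204 in AN-GelMA, 1.37% of 73 in GelMA and 77.9% of 1050 in untreated. For Saa3 the shares were 74.7%, 56.6% and 72.8%, and for Cxcl5 they were 63.4%, 72.6% and 69.1% in these libraries. With each cell thinned to 800 UMIs, Nos2 remained detectable in 41.0% of AN-GelMA members (109 of 266), 0% of GelMA members (0 of 28, with an exact upper limit of 12.3%) and 57.1% of untreated members. Cells with keratinocyte markers had Nos2 in 0.470%, 0.104% and 0.495% at the same depth, and endothelial-marker cells in 4.08%, 5.32% and 4.20%. Whether these UMIs came from free RNA was not tested. Thinning left out 63 AN-GelMA, 5 GelMA and 17 untreated members that were shallower.

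Beside the other fibroblast-gate cells of the same library, AN-GelMA and untreated members carried more RNA of most NF-kB feedback and hypoxia genes measured, and less of several contractile and adventitial genes. Levels of Cxcl1, Il33 and Rarres2 were higher in members of every library, though not all of them passed the minimum given below in each library. These ratios are given without tests, since the rule selected the cells and genes of one programme vary together. A gene was counted as higher or lower at 1.5 times. With at least 200 UMIs over both kinds of cells, 6.64% of 4898 genes were higher and 12.2% lower in AN-GelMA members, 13.2% of 2688 were higher and 25.2% lower in GelMA members, and 7.51% of 3091 were higher and 13.6% lower in untreated members. Each ratio below is log2 of CPM in members over CPM in the other gate cells. Without cells holding other-class RNA in either kind, 7.52% of genes were higher in AN-GelMA members and 10% in untreated members. GelMA then had 24 members, 499 genes past the minimum, and 13% of these higher and 22% lower.

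**Figure D2:**
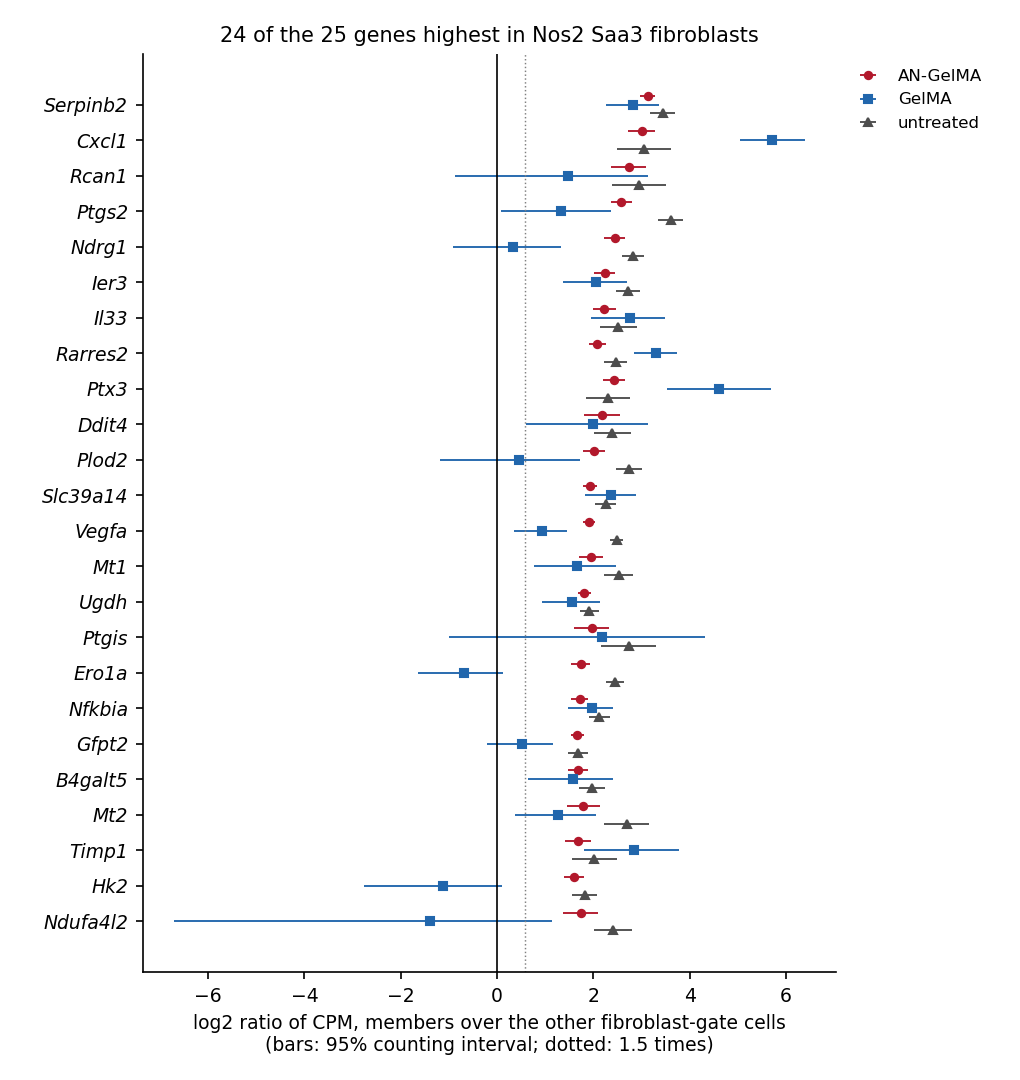
Shown are 24 of the 25 genes highest in members of both AN-GelMA and untreated, outside the genes the rule counts, plotted as log2 ratio of CPM in members over the other fibroblast-gate cells in each library, with 95% counting intervals. Serpinb2 and Cxcl1 lie far above 0 in all 3 libraries, while Ero1a, Hk2 and Ndufa4l2 lie above 0 in AN-GelMA and untreated and below 0 in GelMA with wide intervals.

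Of the neutrophil-attracting, monocyte-attracting and other chemokines outside the rule that passed the minimum, 6 of 6 were higher in AN-GelMA members, 1 of 2 was higher and 1 lower in GelMA members, and 1 of 3 was higher in untreated members. With other-class cells left out, all chemokines that met the minimum were still higher in AN-GelMA members. In untreated members 0 neutrophil-attracting chemokines then met it, and 0 of the other chemokines that met it were higher. Cxcl1, a neutrophil-drawing chemokine like Cxcl5 but no part of the rule, was at 533 CPM in AN-GelMA members, 929.8 CPM in GelMA members and 231 CPM in untreated members, against 66.1, 17.7 and 28.0 CPM in the other gate cells. Its log2 ratios were 3.01, 5.71 and 3.04, so its level was higher in members of every library. In GelMA and untreated Cxcl1 was below the minimum and is not in the counts above. Of the leukocyte cytokines past the minimum, 3 of 6 were higher and 1 lower in AN-GelMA members. In GelMA members 1 of 1 was higher, and in untreated members 2 of 4 were higher and 1 lower. With other-class cells left out, 3 of 4 were higher in AN-GelMA members, and 0 met the minimum in GelMA or untreated. Il33, an alarmin cytokine, was at 548, 321 and 389 CPM in AN-GelMA, GelMA and untreated members, with log2 ratios of 2.23, 2.76 and 2.52. Il6, the cytokine that drives the acute phase response, had 100, 55 and 30 UMIs in these members, or 218, 929.8 and 110.2 CPM, with ratios of 2.17, 6.97 and 2.62. In GelMA 1 cell held 45 of the 55 Il6 UMIs, and without cells holding other-class RNA 6 UMIs and a ratio of 3.46 were left. Rarres2, the precursor of the leukocyte attractant chemerin, gave ratios of 2.08, 3.30 and 2.46. Lif, a cytokine of the Il6 family, gave 1.66, 1.56 and 2.07.

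Receptors for such signals were higher to a smaller degree. Of the cytokine receptors that passed the minimum, 6 of 14 were higher in AN-GelMA members, 3 of 4 in GelMA members and 4 of 7 in untreated members, and none (0) was lower in any of the libraries. Il1r1, the signalling receptor for interleukin-1, was at 733, 693 and 650.1 CPM in AN-GelMA, GelMA and untreated members, with ratios of 1.13, 1.55 and 1.03. Osmr, the receptor subunit for oncostatin M, gave 1.44, 2.13 and 1.29, and Il17ra, a receptor subunit for interleukin-17, gave 1.22, 2.15 and 1.31. The median ratio over the receptors was 0.54 in AN-GelMA, 1.20 in GelMA and 1.01 in untreated, beside -0.07, -0.05 and -0.10 over all genes.

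NF-kB feedback genes, which NF-kB itself induces, were higher for 9 of 12 in AN-GelMA members, 3 of 6 in GelMA members and 4 of 6 in untreated members, with none (0) lower. With other-class cells left out, 8 of 9 were higher in AN-GelMA and 3 of 4 in untreated, and in GelMA 0 genes met the minimum. Nfkbia, the inhibitor IkB-alpha, was at 853 CPM in AN-GelMA members, 761 CPM in GelMA members and 1091 CPM in untreated members, with ratios of 1.72, 1.97 and 2.13. Nfkbiz, a nuclear IkB protein needed for Il6 transcription, gave ratios of 1.03, 0.81 and 1.54. Socs3, the feedback inhibitor of STAT3 signalling, gave 1.81, 3.12 and 1.38. Slc39a14, a zinc transporter of the acute phase response, was at 1356, 626 and 1161 CPM in AN-GelMA, GelMA and untreated members with ratios of 1.92, 2.37 and 2.26. Hp, the haem-binding acute phase protein haptoglobin, had 56, 1 and 24 UMIs. Of these acute phase genes, Slc39a14 was thus higher in AN-GelMA and untreated members than in other gate cells. Hp is given by UMIs alone, without a comparison, and rested on a single UMI in GelMA.

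The DNA just upstream of the genes named so far was read because several of them are known NF-kB targets. Of the 25 genes highest in members, 18 had an entry in the RefSeq promoter table for GRCm38.p6, with 22 promoters in all. An NF-kB consensus motif on either strand within 250 bases before the start was present in 6 of these 22 promoters (27.3%), against 7.25% of all 32851 promoters in the table. The 4 promoters below show the motif in capitals within the 120 bases before the start, written 5′ to 3′ along the gene.
Cxcl1 (chr5:90891125-90891244, plus strand): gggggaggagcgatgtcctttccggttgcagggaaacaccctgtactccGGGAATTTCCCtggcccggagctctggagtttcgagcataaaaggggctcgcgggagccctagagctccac
Il6 (chr5:30012994-30013113, plus strand): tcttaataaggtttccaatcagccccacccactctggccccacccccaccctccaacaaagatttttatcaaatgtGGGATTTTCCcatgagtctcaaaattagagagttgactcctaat
Nfkbia (chr12:55492648-55492767, minus strand): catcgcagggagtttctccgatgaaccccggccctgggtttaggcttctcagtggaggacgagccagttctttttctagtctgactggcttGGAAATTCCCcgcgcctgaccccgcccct
Ier3 (chr17:35821593-35821712, plus strand): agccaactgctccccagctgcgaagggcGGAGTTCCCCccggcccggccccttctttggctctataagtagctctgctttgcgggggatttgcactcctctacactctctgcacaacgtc
The first motif base lay 71 bases before the start in Cxcl1, 44 in Il6, 29 in Nfkbia and 92 in Ier3. Il6 was added as a cytokine of this group and is not among the 25 genes. Ier3, an immediate early gene that restrains cell death, was at 681, 389 and 969.6 CPM in AN-GelMA, GelMA and untreated members, with ratios of 2.24, 2.06 and 2.73. Neither of the rule genes with a promoter in the table, Saa3 and Tnfaip6, had the motif in these 250 bases. A match is a description of letters and no measurement of binding.

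Among prostaglandin genes Ptgs2 and Ptgis stood high, as did a protease inhibitor gene. Of the prostaglandin list past the minimum, 2 of 4 were higher in AN-GelMA members and 1 of 2 in untreated members. None (0) was lower, and in GelMA 0 met the minimum. Ptgs2, the inducible cyclooxygenase, was at 731 CPM in AN-GelMA members, 135 CPM in GelMA members (8 UMIs) and 1286 CPM in untreated members, against 122, 53.8 and 105 CPM in other gate cells. Ptgis, prostacyclin synthase, gave ratios of 1.97, 2.18 and 2.74, the GelMA value resting on 2 UMIs. It was below the minimum for counting in GelMA and untreated. Serpinb2, an inhibitor of serine proteases, was at 1887, 609 and 1164 CPM in AN-GelMA, GelMA and untreated members, with ratios of 3.13, 2.83 and 3.44, and stood first among the 25 genes.

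Hypoxia and glycolysis genes were high in AN-GelMA and untreated members. Of this list, 12 of 14 genes were higher in AN-GelMA members and 10 of 10 in untreated members, against 1 of 4 in GelMA members, where 2 of 4 were lower. The median ratio was 1.17 in AN-GelMA, -0.80 in GelMA and 1.73 in untreated. Vegfa, the angiogenic growth factor, was at 1704 CPM in AN-GelMA members, 507 CPM in GelMA members and 2799 CPM in untreated members, with ratios of 1.91, 0.93 and 2.49. Ndrg1, a stress gene induced by low oxygen, was at 720.3, 135 and 1227 CPM, with ratios of 2.44, 0.32 and 2.83. Hk2, an inducible hexokinase, was at 675, 84.5 and 705 CPM, with ratios of 1.60, -1.13 and 1.82. GelMA members were the lowest of the 3 libraries for each of these genes, with between 5 and 30 UMIs behind each value. Among cells without other-class RNA, 10 of 12 genes were higher in AN-GelMA members and 8 of 9 in untreated members. In GelMA a single gene, Vegfa, then met the minimum, with a ratio of 1.16, and the ratios of Hk2 and Ero1a changed sign to 0.22 (3 UMIs) and 1.02 (9 UMIs). The direction of hypoxia genes in GelMA members thus rested on which cells were counted. The genes of this list were summed as well, giving 6032 CPM in AN-GelMA members (interval 5810.0 to 6261), 2012 CPM in GelMA members (interval 1667 to 2407) and 9333 CPM in untreated members (interval 8973 to 9703). No pair of these intervals overlapped. Without cells holding other-class RNA the sums were 6555, 2257 and 11470 CPM in AN-GelMA, GelMA and untreated members, in the same order of libraries.

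Hypoxia-inducible factors bind DNA at the core ACGTG, and this core, searched on both strands, was present within 250 bases before the start in 16.6% of all promoters of the table. It was present in 15 of 28 promoters of the listed hypoxia and glycolysis genes (53.6%) and in 10 of the 22 promoters of the genes highest in members (45.5%). The list was chosen for hypoxia and glycolysis, so its share is no result about these cells. Among the genes highest in members, Cxcl1, Ero1a, Gfpt2, Ier3 and Vegfa had both this core and the NF-kB motif. Binding was not measured for either. The 3 promoters below are those of a glucose transporter, a hexokinase and an oxidase of protein folding whose RNA was high in AN-GelMA and untreated members, with the core or its complement CACGT in capitals.
Slc2a1 (chr4:119108625-119108744, plus strand): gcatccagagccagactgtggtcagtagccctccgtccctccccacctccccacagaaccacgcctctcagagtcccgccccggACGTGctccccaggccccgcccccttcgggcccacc
Hk2 (chr6:82774455-82774574, minus strand): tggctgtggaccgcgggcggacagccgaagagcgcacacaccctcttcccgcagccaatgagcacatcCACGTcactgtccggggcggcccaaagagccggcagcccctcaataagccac
Ero1a (chr14:45318573-45318692, minus strand): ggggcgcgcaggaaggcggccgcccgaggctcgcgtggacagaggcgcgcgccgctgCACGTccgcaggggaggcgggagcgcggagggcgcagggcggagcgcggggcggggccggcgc
The core began 36 bases before the start in Slc2a1, 52 in Hk2 and 63 in Ero1a. Ero1a was at 714, 203 and 1612 CPM in AN-GelMA, GelMA and untreated members, with ratios of 1.74, -0.69 and 2.45.

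Matrix genes were divided. Of the matrix and crosslinking list, 5 of 17 were higher and 4 lower in AN-GelMA members, 6 of 11 were higher and 1 lower in GelMA members, and 4 of 16 were higher and 4 lower in untreated members. With other-class cells left out, 0 of 10 were higher and 4 lower in GelMA members, while AN-GelMA had 4 of 17 higher and 4 lower and untreated 4 of 16 higher and 3 lower. The higher ones included Plod2, a lysyl hydroxylase that prepares collagen for crosslinking, with ratios of 2.02, 0.47 and 2.74 in AN-GelMA, GelMA and untreated. Lox, the enzyme that crosslinks collagen, gave 1.40, 2.40 and 1.74, and the prolyl hydroxylase P4ha2 gave 1.23, 1.20 and 1.64. Enzymes of hyaluronan precursor synthesis were higher too, with ratios for Ugdh of 1.81, 1.56 and 1.92 and for Gfpt2 of 1.67, 0.53 and 1.69. Among cells without other-class RNA the GelMA ratios were 0.51 for Ugdh and -0.17 for Gfpt2. Postn, the matrix protein periostin, was lower in AN-GelMA and untreated members, at 255 and 151 CPM against 732 and 743 CPM in other gate cells. In GelMA members it was at 558 against 632 CPM, a difference under 1.5 times.

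Contractile genes were low in members. Of this list, 4 of 9 were lower in AN-GelMA, 4 of 7 in GelMA and 5 of 8 in untreated, and none (0) was higher. Without cells holding other-class RNA, 4 of 9 were lower in AN-GelMA, 0 of 4 in GelMA and 4 of 8 in untreated. Acta2, the smooth muscle actin of myofibroblasts, had 16, 1 and 7 UMIs in AN-GelMA, GelMA and untreated members, or 34.8, 16.9 and 25.7 CPM against 209.8, 129 and 214 CPM in other gate cells. Adventitial-type genes outside the rule were lower for 3 of 5, 1 of 1 and 3 of 4 in these libraries. The rule left out cells rich in Pi16-type or Col12a1-type genes, and its part in these lower values was not tested. Interferon response genes were near the other fibroblasts, with 0 of 12 higher in AN-GelMA, 1 of 5 in GelMA and 0 of 8 in untreated.

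**Figure D3:**
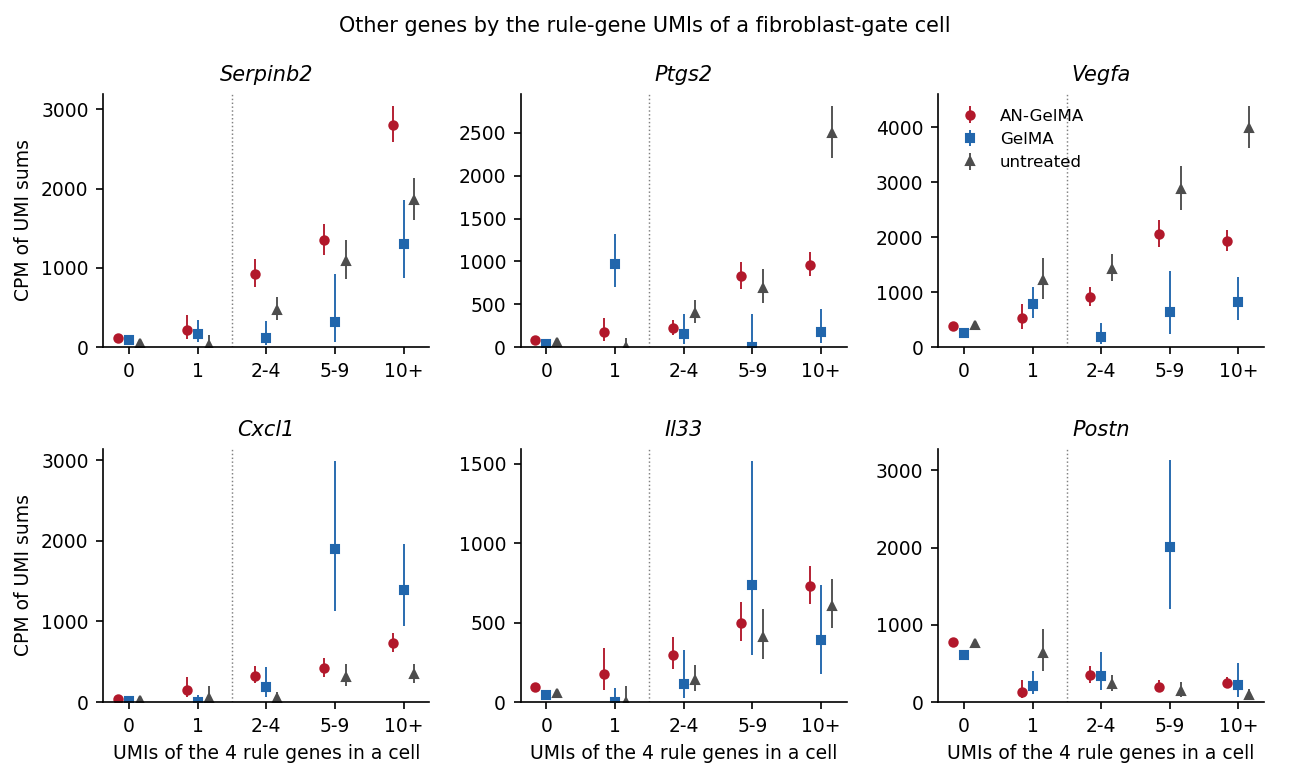
CPM of 6 genes outside the rule in fibroblast-gate cells grouped by their UMIs of the 4 rule genes, with Poisson 95% intervals. Cells with 1 UMI met the other limits of the rule, cells with 0 were taken without those limits, and points right of the dotted line are members. In AN-GelMA and untreated, Serpinb2 and Il33 are highest in the last group of cells and Postn is highest in the first. In GelMA, Postn is highest in the group with 5 to 9 UMIs.

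Some genes that accompany membership were graded with the UMIs of the rule genes. Serpinb2 in AN-GelMA was at 112 CPM in cells with 0 rule-gene UMIs, 217 CPM with 1, 918 CPM with 2 to 4, 1349 CPM with 5 to 9 and 2807 CPM with 10 or more. In untreated cells it was at 54.4, 27.6, 469.6, 1083 and 1851 CPM over the same groups. Vegfa in untreated cells was at 397, 1213, 1429.7, 2869 and 3997 CPM, and in AN-GelMA cells at 388, 521, 910.0, 2061 and 1927 CPM. Vegfa thus differed little between these libraries in cells with 0 rule-gene UMIs and was lower in AN-GelMA in the 4 other groups. Postn in untreated cells was at 768, 634, 229.6, 141 and 85.4 CPM, the opposite order. In AN-GelMA cells it was at 782, 130, 345, 191 and 245 CPM, highest with 0 rule-gene UMIs and in no order over the other groups. GelMA groups, which held as few as 6 cells, followed no order for Postn either.

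Members led by different rule genes differed in other genes. The genes named for each were ranked by the lower bounds of both libraries together, or come from the lists, so that a ranked gene is high in both by choice. This division was chosen after the values were seen, used only members without other-class RNA, and is a description. GelMA was left out of the ratios because it had at most 13 such members led by any gene. In AN-GelMA, 56 members were led by Nos2, 86 by Tnfaip6, 73 by Saa3 and 60 by Cxcl5, and in untreated the numbers were 65, 35, 20 and 20. Each ratio compares members led by the named gene with members led by any other rule gene in the same library.

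Members led by Nos2 were richest in hypoxia genes. Ero1a was at 2074 CPM in AN-GelMA members led by Nos2 against 525 CPM in members led by another gene, and at 3108 against 984 CPM in untreated. Vegfa was at 3693 against 1592 CPM in AN-GelMA and at 5555 against 1968 CPM in untreated. The log2 ratios of Ndrg1 were 2.19 in AN-GelMA and 1.45 in untreated, and those of Mxi1, a MYC antagonist, were 1.63 and 1.51. Of the hypoxia and glycolysis list, 10 of 13 were higher in AN-GelMA, where 11.3% of all genes were higher, and 10 of 10 in untreated, where 19.9% were.

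Members led by Tnfaip6 carried more Fn1, Cd44 and Vim. Fn1, the matrix protein fibronectin, was at 2904 against 1049 CPM in AN-GelMA and at 2592 against 758 CPM in untreated. Cd44, the receptor for hyaluronan, was at 1443 against 384 CPM in AN-GelMA and at 864 against 263 CPM in untreated. Vim, the intermediate filament vimentin, gave log2 ratios of 1.28 in AN-GelMA and 1.39 in untreated. Of the matrix and crosslinking list, 7 of 21 were higher and 1 lower in AN-GelMA, and 4 of 17 were higher and 4 lower in untreated, beside 12.5% of all genes higher in either library. Of the hypoxia list, 5 of 13 were lower in AN-GelMA and 8 of 10 in untreated, beside 13.4% and 25.1% of all genes.

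Members led by Saa3 were richest in complement genes. C4b, a component of the classical pathway, was at 1932 against 674 CPM in AN-GelMA and at 1639.8 against 558 CPM in untreated. C3, the central complement component, gave log2 ratios of 2.42 in AN-GelMA and 0.94 in untreated. All 4 of 4 complement genes past the minimum were higher in AN-GelMA and 3 of 3 in untreated, where 10.8% and 14.7% of all genes were. Cxcl1 stood at 1063 against 463 CPM in AN-GelMA and at 753 against 266 CPM in untreated. Matrix genes were low in these cells, with 9 of 21 lower in AN-GelMA and 9 of 17 in untreated, beside 17.5% and 26.0% of all genes.

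Members led by Cxcl5 carried more type I collagen RNA. Col1a2, a chain of type I collagen, was at 9285 against 6000.4 CPM in AN-GelMA and at 10596 against 5989 CPM in untreated. Thbs2, the matrix protein thrombospondin-2, gave log2 ratios of 0.77 in AN-GelMA and 1.97 in untreated, and Cxcl12, a chemokine of stromal cells, gave 1.16 and 1.15. Gadd45g, a stress and growth arrest gene, gave 1.59 in AN-GelMA and 1.55 in untreated. Of the matrix and crosslinking list, however, 2 of 21 were higher and 5 lower in AN-GelMA, and 1 of 17 was higher and 1 lower in untreated, beside 9.67% and 10.4% of all genes higher and 16.1% and 27.2% lower. Hypoxia genes were lower for 4 of 13 in AN-GelMA and 6 of 10 in untreated.

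**Figure D4:**
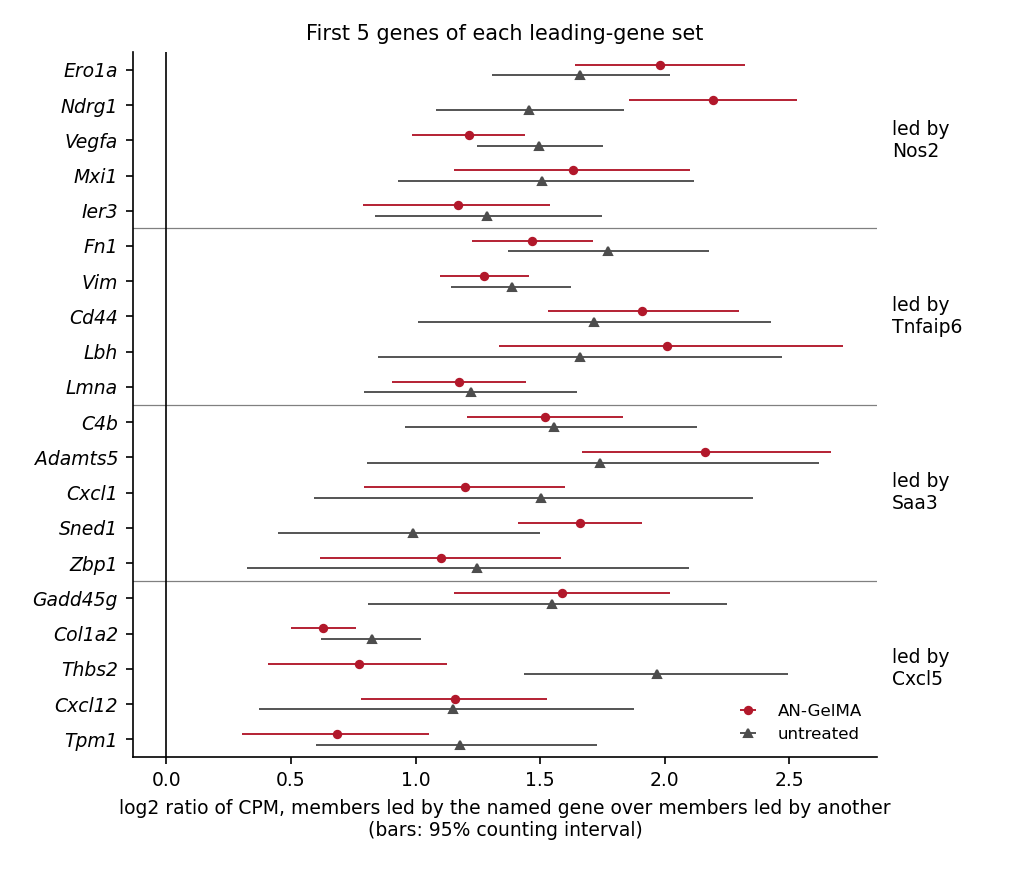
The first 5 genes of each set of members led by 1 rule gene, as log2 ratio of CPM over members led by another rule gene, in AN-GelMA and untreated, with 95% counting intervals. Genes were ranked by the smaller lower bound of the 2 libraries, so that all lie above 0 by choice.

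The comparison of AN-GelMA with untreated members asked how fibroblasts that met the same rule differed between a gel carrying apoptotic neutrophils and no gel. With at least 50 UMIs over both libraries, 10.2% of 4202 genes were higher and 8.26% were lower in AN-GelMA members at 1.5 times, and the median over all genes was 0.06 on the log2 scale. Hypoxia and glycolysis genes, Nos2 and Ptgs2 were lower in AN-GelMA members. Tnfaip6, most chemokines past the minimum and several hyaluronan-related genes were higher. Nos2 and Tnfaip6 are rule genes that chose the members, so their values are a description. No test was possible with 1 library each.

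Of the hypoxia and glycolysis list, 10 of 18 genes were lower and 0 were higher in AN-GelMA members, with a median of -0.66. With other-class cells left out, 13 of 18 were lower, beside 6.92% of all genes, and the median was -0.80. Vegfa was at 1704 CPM in AN-GelMA members against 2799 CPM in untreated members, a log2 ratio of -0.72 (interval -0.86 to -0.57). Ankrd37, a gene induced by hypoxia-inducible factor, had 21 UMIs in AN-GelMA members and 51 in untreated members, a ratio of -2.04 (interval -2.84 to -1.28). Pfkfb3, an enzyme that speeds glycolysis, was at 296 against 577 CPM, a ratio of -0.96 (interval -1.30 to -0.62). Outside the list, Ero1a gave a ratio of -1.18 and Pgf, the angiogenic placental growth factor, -1.31. Not every gene followed, since Hk2 gave -0.06 and Ldha, lactate dehydrogenase, gave -0.19, both with intervals that held 0.

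The other fibroblasts of the same libraries are set beside these values. In the Pi16 type, 3 of 18 listed genes were lower and 2 higher, with a median of -0.06, and in the Col12a1 type 0 of 14 were lower or higher, with a median of 0.03. Over all genes, 7.52% were lower in the Pi16 type and 4.34% in the Col12a1 type. Summed over the list, levels were 2278 CPM in AN-GelMA and 2374 CPM in untreated for the Pi16 type, and 2398 and 2421 CPM for the Col12a1 type. Slc2a1, the glucose transporter GLUT1, was lower in AN-GelMA both in members (-0.74) and in the Pi16 type (-1.13), but not in the Col12a1 type (0.34). The difference between kinds of fibroblast was not tested.

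**Figure D5:**
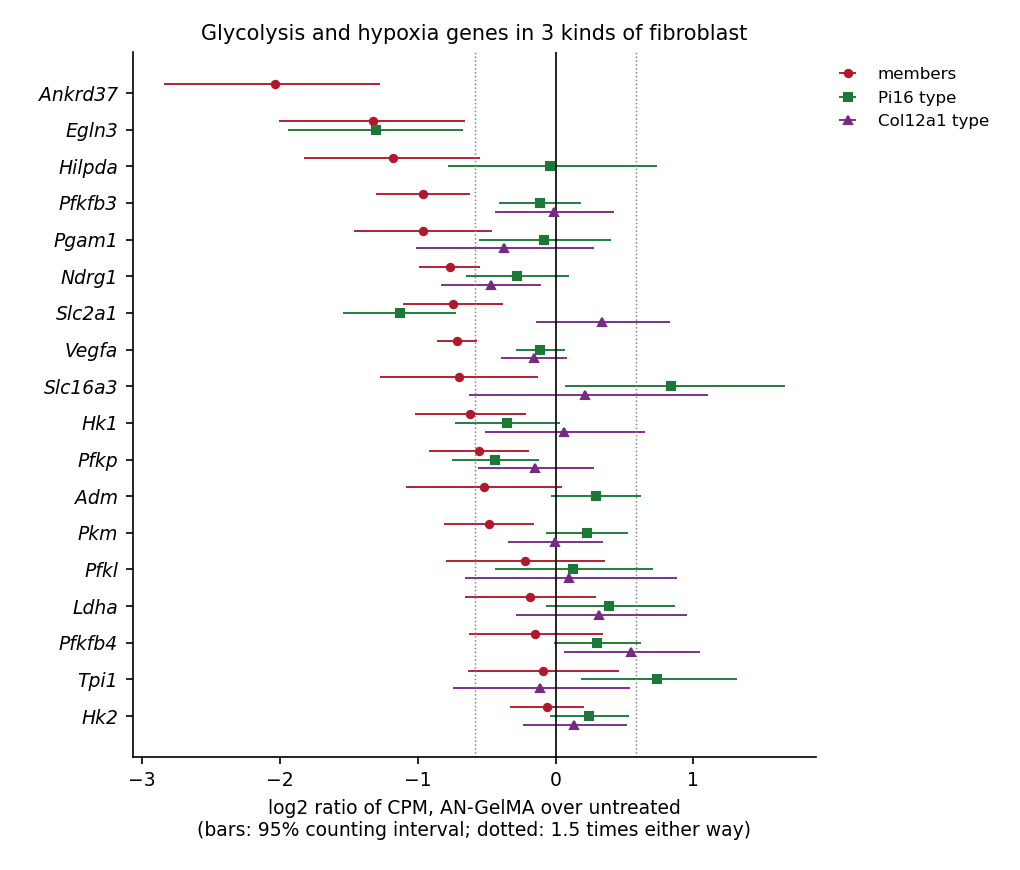
Hypoxia and glycolysis genes with at least 50 UMIs over both libraries in members, as log2 ratio of CPM in AN-GelMA over untreated, in members, the Pi16 type and the Col12a1 type, with 95% counting intervals. Values with under 50 UMIs are left out. All 18 points of the members lie below 0, while those of the other types lie on both sides of 0.

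The same values are given for members with and without Nos2. This split uses a rule gene, was also chosen after the values were seen, and left out cells with other-class RNA, so it is a description. Members without Nos2 are those that entered through the other rule genes alone. Among members with Nos2, 119 in AN-GelMA and 96 in untreated, the list summed to 9590.1 CPM in AN-GelMA and 14667 CPM in untreated, and 9 of 17 genes were lower, beside 8.51% of all genes. Among members without Nos2, 170 in AN-GelMA and 53 in untreated, it summed to 4144 and 4944 CPM, and 1 of 8 genes was lower, beside 7.33% of all genes. Vegfa gave log2 ratios of -0.70 with Nos2 and -0.23 without, and Ndrg1 gave -0.61 with Nos2 and 0.10 without. The median over the list was -0.60 among members with Nos2 and -0.19 among those without, beside -0.80 among all members without other-class RNA. With Nos2 left out of the rule itself, the median was -0.37. Nos2 itself was at 4433 CPM in AN-GelMA and 6042 CPM in untreated within the cells that had it.

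Ptgs2 and Hmox1, which encode inducible enzymes, were also lower in AN-GelMA. Ptgs2 was at 731 CPM in AN-GelMA members against 1286 CPM in untreated members, a ratio of -0.81 (interval -1.03 to -0.59). In the Col12a1 type it had the other sign, with a ratio of 0.57. Hmox1, the haem-degrading enzyme heme oxygenase-1, gave -1.25 in members, -0.58 in the Pi16 type and -1.21 in the Col12a1 type. Single cells held 37 of its 96 UMIs in AN-GelMA members and 43 of 135 in untreated members, and without Nos2 in the rule its ratio was 0.73.

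Of the hyaluronan list, which includes Tnfaip6, 4 of 6 genes were higher in AN-GelMA members, 4 of 8 in the Pi16 type and 0 of 5 in the Col12a1 type. The higher genes in members and in the Pi16 type include Tnfaip6, whose UMIs took part in sorting the cells. Over all genes, 4.06% were higher in the Pi16 type and 5.78% in the Col12a1 type. Tnfaip6 was at 3138 CPM in AN-GelMA members against 1480.2 CPM in untreated members, a ratio of 1.08 for a gene the rule counts. Ptx3, a pentraxin that Tnfaip6 protein binds in hyaluronan matrix, was at 631 against 264 CPM, a ratio of 1.25 (interval 0.88 to 1.65). Uap1, an enzyme that makes a sugar nucleotide used for hyaluronan, was at 1249 against 511 CPM, a ratio of 1.29 (interval 1.02 to 1.57). Prg4, the lubricating proteoglycan lubricin, was at 255 CPM (117 UMIs, 24 of them in 1 cell) against 69.8 CPM (19 UMIs), a ratio of 1.87. Cd44 gave 0.61.

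Of the chemokines past the minimum, 5 of 7 were higher and 1 lower in AN-GelMA members, and of the growth and angiogenic factors 2 of 6 were higher and 1 lower. The chemokines counted here include Cxcl5, a rule gene whose UMIs chose the members. At 1127 against 911 CPM, Cxcl5 was counted neither as higher nor as lower. Among cells without other-class RNA, 5 of 6 chemokines were higher and 0 lower, while 2 of 5 growth and angiogenic factors were higher and 2 lower, with a median of -0.35 beside 0.24 with all members. In members with Nos2, 1 of 2 neutrophil-attracting, 0 of 1 monocyte-attracting and 1 of 1 other chemokines were higher, beside 11.7% of all genes. In those without Nos2 the numbers were 0 of 2, 1 of 2 and 0 of 1, beside 16.9% of all genes. Most chemokines being higher thus did not hold in either of these smaller sets. Cxcl1 was at 533 CPM in AN-GelMA members against 231 CPM in untreated members, a ratio of 1.20 (interval 0.80 to 1.63), and gave 1.11 in the Pi16 type and 2.20 in the Col12a1 type. The monocyte chemokine Ccl2 gave 1.10, and its relative Ccl7 gave 0.93. Cxcl12 gave 0.82 in members, 0.04 in the Pi16 type and 0.03 in the Col12a1 type. Fgf7, the keratinocyte growth factor, was at 990.2 against 525 CPM, a ratio of 0.91 (interval 0.64 to 1.20). Hgf, the hepatocyte growth factor that also acts on epithelium, had 50 UMIs in AN-GelMA members and 12 in untreated members, a ratio of 1.30. Socs3 was at 511 against 195 CPM, a ratio of 1.39, with 0.94 in the Pi16 type and 0.98 in the Col12a1 type.

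Of the protease list, 5 of 13 genes were higher and 1 lower in AN-GelMA members. Without cells holding other-class RNA 2 of 12 were higher and 1 lower, beside 10.2% of all genes higher. Adamts15, which cleaves the proteoglycan versican, gave 1.44 in members, 1.28 in the Pi16 type and -0.25 in the Col12a1 type, and the related Adamts1 gave 1.41, 0.11 and 0.44. Other lists stood nearer the background: 0 of 13 cytokine receptors, 2 of 14 NF-kB feedback genes and 0 of 4 complement genes were higher in AN-GelMA members. Among heat shock genes 1 of 2 past the minimum was higher, with Bag3, a co-chaperone, at 0.93 and Hsph1, a large chaperone, at -0.03. The mitochondrial transcripts mt-Atp6 and mt-Atp8 gave 1.41 and 1.32 in members but -0.59 and -0.46 in the Pi16 type.

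The first-ranked higher gene and the first-ranked lower ones were far smaller or below the minimum without cells holding other-class RNA. Krt1, a keratinocyte keratin, had 1227 UMIs in AN-GelMA members, 824 of them in 1 cell, against 45 UMIs in untreated members. Its ratio was 4.01 with all members and 0.59 without cells holding other-class RNA. Dct, a melanocyte enzyme, had 0 UMIs in AN-GelMA members and 87 in untreated members, 77 of them in 1 cell, and 2 without those cells. The neutrophil protein gene S100a9 had 11 against 167 UMIs, 71 of the untreated ones in 1 cell, and without such cells 6 against 3 UMIs were left. Cxcl2, a neutrophil chemokine that neutrophils and macrophages also make, gave -1.57 with all members and 1.44 without those cells. The genes described before were less affected, with ratios without those cells of -0.87 for Vegfa, -1.29 for Ero1a, 1.18 for Ptx3, 1.05 for Uap1 and 1.00 for Cxcl1.

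The 33 GelMA members are described by levels alone, since they fell below the minimum of 50 cells for ratios between libraries. They had 55 UMIs of Cxcl1 (929.8 CPM), 55 of Il6 (929.8 CPM), 40 of Ccl2 (676 CPM) and 84 of C3 (1420.1 CPM). AN-GelMA members had 533 CPM of Cxcl1, 218 CPM of Il6, 213 CPM of Ccl2 and 542 CPM of C3, and untreated members had 231, 110.2, 99.2 and 415 CPM of these genes. GelMA members were the highest of the 3 libraries for each of these 4 genes, as for Cxcl5. With other-class cells left out they were at 1068 CPM for Cxcl1 (35 UMIs), 763 CPM for Ccl2 (25 UMIs) and 2288 CPM for C3 (75 UMIs, 10 cells), still the highest. Il6 was then at 183 CPM in GelMA members (6 UMIs), 241 CPM in AN-GelMA members and 163 CPM in untreated members. Over all leukocyte cytokines the sum was 1826, 1454 and 1337 CPM in GelMA, AN-GelMA and untreated members, and 1190, 1541 and 1190 CPM without those cells. Cfb, the complement factor that pairs with C3, had 28 UMIs in GelMA members (473 CPM), against 139 CPM in AN-GelMA members and 95.5 CPM in untreated members. The same cells had 8 UMIs of Ptgs2, 8 of Ndrg1, 1 of Nos2 and 0 of Pgf.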

How the data were processed

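Whole-number UMI counts per gene and barcode were deposited by the authors as filtered matrices whose file headers name Cell Ranger 10.0.0, and the submitters' processing notes name the builds GRCm39 and mm39. Filters on reads were not found in the labels or headers. From these counts, cells and members were selected as stated in the report, UMIs were summed by library and cell kind, and sums were scaled to CPM with Python 3.11.15, NumPy 2.4.6, SciPy 1.17.1 and pandas 2.3.3. Figures used matplotlib 3.10.9.

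Shares have exact Clopper-Pearson intervals, sums have Poisson intervals, and log2 ratios have exact conditional binomial intervals, all at 95% and covering counting error only. A sum of 0 was set to 3 UMIs for a ratio. No test between groups was made, because each group is 1 library. The ratio and interval steps were tested on simulated data.

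No doublet caller was run. Cells with at least 3 UMIs of another class of markers were left out as an alternative, which for members beside other gate cells was added after seeing the data. The 25 genes highest in members were ranked by the smaller of the lower bounds in AN-GelMA and untreated, with at least 50 UMIs in members of each; 1 of them is not reported here. The 12 highest and 12 lowest in AN-GelMA over untreated were ranked by the bound nearest to 0, with and without other-class cells. Other genes come from 26 lists, of which Nos3 and Ly6c1 were not analysed here. The members and lists were chosen with earlier results of these data known, and the splits by leading gene and by Nos2 were chosen after seeing the values. Probes differ in capture, so levels are compared between cells and not between genes, except that the leading gene of a member compares the UMIs of the 4 rule genes. Promoter sequences are RefSeq's for GRCm38.p6 and were matched by gene symbol. Alternatives changed depth, gate, rule, quality filters, minimum and scaling.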

Additional observations from a re-analysis of the deposited data

How the results depend on the processing

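The share of members among gate cells left the counting interval of the reported value under these settings. With a gate of 10 UMIs it was 16.4% in AN-GelMA, 5.27% in GelMA and 15.3% in untreated. With at least 3 rule-gene UMIs it was 12.4% in AN-GelMA and 11.1% in untreated, and with at least 4 it was 10.7% and 9.49%. Without Nos2 in the rule it was 11.0% in AN-GelMA and 7.49% in untreated, and without Saa3 it was 11.0% in AN-GelMA. Leaving out members with other-class RNA gave 12.1% in AN-GelMA and 10.6% in untreated, and thinning to 800 UMIs gave 4.91% in GelMA. GelMA stayed the lowest of the 3 libraries in each of these settings. The number of genes higher in AN-GelMA than in untreated members, 427, became 164 with thinning, 97 at 2-fold, 970 with a minimum of 20 UMIs and 153 with a minimum of 100 UMIs. The number lower, 347, became 110 with thinning, 231 with a gate of 10 UMIs, 185 without Nos2 in the rule, 217 without other-class members, 98 at 2-fold, 1009 with a minimum of 20 UMIs and 101 with a minimum of 100 UMIs. At 2-fold the same genes entered and only the threshold differed, while the other settings changed the UMIs, cells or genes that entered. The hypoxia list median lay between -0.80 and -0.37 over the planned settings. Of 49 named genes past 1.5 times, 2 reversed. Cxcl2, at -1.57, became 0.83 with at least 4 rule-gene UMIs and 1.44 without other-class members, and Hmox1, at -1.25, became 0.73 without Nos2 in the rule. The cause was not tested. Without Nos2 in the rule 28 of 36 named genes that still met the minimum stayed past 1.5 times, and with thinning 25 of 32 did. Of 703 values of named genes over the settings, 89 left their counting interval without reversing. Of 299 list medians under planned settings, 4 moved, and of 62 under settings added later, 9 did. A median moved when it left a range set by the ratios of the list's own genes. For the shortest lists this range was the whole span of those ratios, so their medians could hardly move.

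No paired analysis was possible because the labels number no animals and hold a single library per group. Counting intervals leave out differences between animals. A single UMI in GelMA members was worth 16.9 CPM, so genes below about that level were not detectable there. Animal, skin piece and treatment cannot be told apart.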
